A study of Drosophila melanogaster with 3 samples.

Results

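The genes described here encode 5 chromatin proteins of Drosophila melanogaster: HmgZ, HmgD, Dsp1, Ssrp and dre4. They are 5 of 13945 protein-coding genes on the 6 chromosome arms, and 8 of the 3515 peaks of the across-replicate list that the authors call conservative had their summit inside one of them or within 5 kb of it. The list of genes was selected on measured values, since HmgZ was noticed for the high signal of its peak, and the other genes were added for their related products. The peak signals and counts near them are therefore given as a description, with no test.

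The data were ChIP-seq (chromatin immunoprecipitation and sequencing) peak lists from whole embryos aged 0 to 24 hours. The embryos came from a transgenic strain that expresses CG14050 fused to enhanced green fluorescent protein (eGFP), and chromatin bound by the fusion was pulled down with an antibody to GFP. There were 3 biological replicates of this 1 group, from a single transgenic strain, and no control library or second condition was analysed here. Whole embryos of this age range mix many tissues and stages, so a peak may come from any of them, and no marker of a cell type could be examined in peak lists.

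HMG-box proteins carry a domain that binds the minor groove of DNA and bends it. HmgD and HmgZ are the closely related small HMGB-type proteins of the fly, and HmgD is abundant in early embryos, before linker histone H1 accumulates. Dsp1 (dorsal switch protein 1) is an HMGB protein with a pair of HMG boxes that acts as a co-repressor with Dorsal and takes part in the recruitment of Polycomb group proteins. Ssrp and dre4, the fly Spt16, are the subunits of FACT, the histone chaperone that takes apart and rebuilds nucleosomes ahead of and behind RNA polymerase, and Ssrp carries an HMG box of its own.

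The sequences under the peaks of Dsp1 and dre4 are shown to set the letters around each deposited summit beside the values that follow. Each line gives the summit base of a conservative peak with 50 bases on each side, from the RefSeq genome (dm6 coordinates, + strand). In 3 of the lines the capitals mark the word TGCACTG, which was chosen after the sequences were seen, and in the line of Dsp1 peak 2 they mark GCCAT, the core of the Pho motif, read on the other strand. Peaks are numbered by signal within a gene.
Dsp1 peak 1 (chrX:16332944-16333044): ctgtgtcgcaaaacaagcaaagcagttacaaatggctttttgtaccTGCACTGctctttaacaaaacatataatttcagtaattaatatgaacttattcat
Dsp1 peak 2 (chrX:16335241-16335341): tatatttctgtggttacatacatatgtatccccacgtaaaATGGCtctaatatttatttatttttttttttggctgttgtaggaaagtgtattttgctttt
dre4 peak 1 (chr3L:1876450-1876550): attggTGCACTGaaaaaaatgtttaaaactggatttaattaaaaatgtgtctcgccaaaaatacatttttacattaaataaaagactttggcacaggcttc
dre4 peak 2 (chr3L:1880799-1880899): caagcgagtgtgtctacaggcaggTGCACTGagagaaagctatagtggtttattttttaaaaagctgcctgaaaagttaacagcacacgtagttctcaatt

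The word TGCACTG was centred 1 bp from the conservative summit of Dsp1 peak 1, 42 bp from that of dre4 peak 1 and 23 bp from that of dre4 peak 2. In replicate 3 the summits of Dsp1 peak 1 and dre4 peak 2 lay 59 and 58 bp to the right of the conservative ones, beyond the printed sequence and farther from the word. Within 50 bp of the conservative summit, on either strand, it was in 3 of the 8 member peaks, in 2.68% of the 3502 conservative peaks on the arms and in 2.19% of 59595 ranked regions that did not pass. Within 150 bp it was in the same number of member peaks, in 12.5% of the conservative peaks and in 6.50% of the regions that did not pass. The longer word GTGCACTG, which contains it, was near the summits of both dre4 peaks and of 0.828% of conservative peaks. Because the word was picked from these sequences, its count near the members has no weight of its own. A match describes letters in the window and shows no binding of any factor.

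HmgZ and HmgD form a single locus on arm 2R. HmgZ (FBgn0010228) runs from 21697488 to 21707861 on the minus strand, and HmgD (FBgn0004362) from 21701458 to 21716727 on the plus strand. In the Ensembl annotation they overlap by 6404 bp, with their transcription start sites (TSSs) facing opposite ways. All 4 conservative peaks lay inside or within 5 kb of both genes and could not be divided between them. Some ranked regions that did not pass were near HmgD alone, and others were near HmgZ alone. The across-replicate ranked list had 21 regions near HmgZ and 29 near HmgD, with most of the HmgZ regions counted for both.

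The strongest peak of the 5 genes, HmgZ/HmgD peak 1, was centred at 21703397, within introns of both genes. It lay 567 bp upstream of an HmgZ TSS at 21702830 and 1939 bp inside HmgD from the distal HmgD TSS at 21701458. Its conservative signal was 1408, rank 12 of 3515. Signal is the value that the authors deposited for a peak, and no source used here gives its scale. The replicates gave signals of 344 in replicate 1 (rank 25 of 2155 peaks), 565 in replicate 2 (rank 9 of 2433) and 494 in replicate 3 (rank 15 of 2282). Set against the median signal of each replicate's own thresholded list, these were 6.01, 9.33 and 7.42 times the median (7.59 ± 1.66 SD, n = 3). This division needs no shared scale, but the median also depends on which regions passed. It was 57.2, 60.5 and 66.6 in replicates 1, 2 and 3. The peak ranked among the first 25 in every replicate, and its summits in the replicates spanned 30 bp. At 392 bp it was one of 3 conservative peaks wider than 330 bp.

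The other 3 peaks of the locus were much lower. HmgZ/HmgD peak 2, with its summit at 21709679 in an HmgD intron and 1818 bp upstream of the distal HmgZ TSS at 21707861, had a conservative signal of 209.9 (rank 904). Its signals were 72.5, 81.9 and 55.6 in replicates 1 to 3, or 1.15 ± 0.278 times the list median (SD, n = 3), and it passed in all 3 lists. HmgZ/HmgD peak 3, at 21700824 in an HmgZ intron and 634 bp upstream of the distal HmgD TSS, had a conservative signal of 137 (rank 1701) and replicate signals of 31.1, 60.8 and 42.1. It passed in each replicate, close to the median of the list in replicate 2 and below it in the others (0.727 ± 0.244, SD, n = 3). In replicates 1 and 3 it was near the end of the thresholded list, at rank 2086 of 2155 and rank 2103 of 2282.

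HmgZ/HmgD peak 4, at 21706201 in an intron of both genes, had a conservative signal of 136 (rank 1731) and replicate signals of 45.8, 40.0 and 28.2. It passed in replicates 1 and 2. In replicate 3 it was ranked with an irreproducible discovery rate (IDR) of 0.363, above the 0.01 that bounds the thresholded lists. The IDR estimates the share of irreproducible regions among those that recur at least as well, and it need not follow the rank by signal. HmgZ/HmgD peak 3 passed narrowly in replicate 1, with an IDR of 0.00995. Peak 1 was higher than peak 2 by 4.74 times in replicate 1, 6.90 times in replicate 2 and 8.89 times in replicate 3 (6.84 ± 2.07, SD, n = 3). Against peak 3 the ratio was 10.7 ± 1.26, and against peak 4 it was 13.0 ± 5.09 (SD, n = 3 each). In every replicate peak 1 lay above the other 3. Peak 2 was above peaks 3 and 4 in each replicate, while peak 3 was below peak 4 in replicate 1 and above it in replicates 2 and 3.

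**Figure D1:**
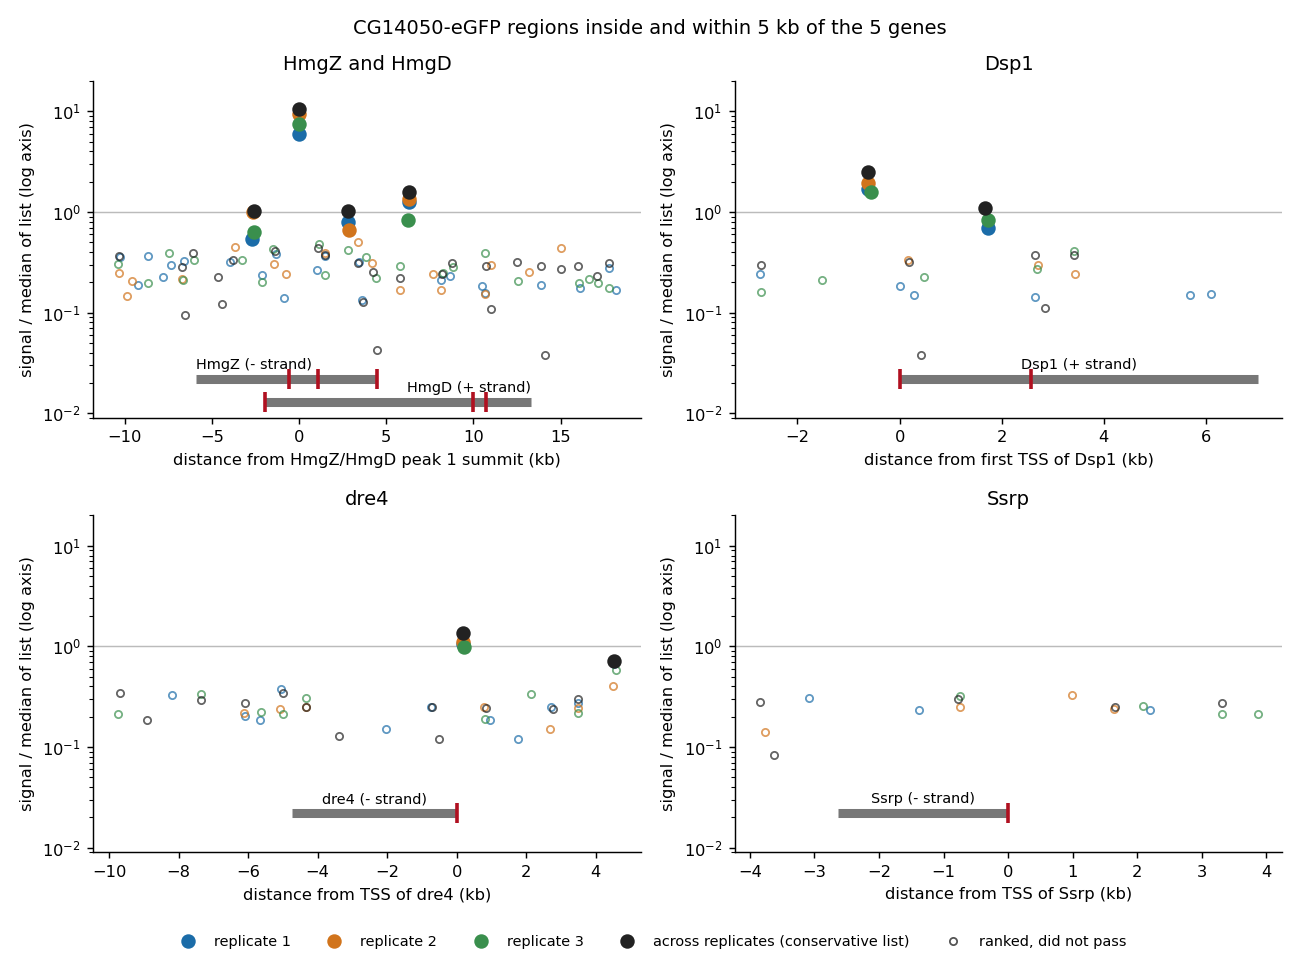
Regions inside and within 5 kb of the genes, by distance in kb from a fixed point in each panel (x) and by signal over the median of the list (y, log axis). Filled points passed in a replicate list or in the conservative list, open points were ranked and did not pass, grey bars are genes and red ticks are TSSs; peak 1 of HmgZ/HmgD stands at 6.01 to 10.5 times the median, and no point of Ssrp is filled.

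None of the 3 TSSs of HmgZ or the 3 of HmgD had a conservative summit within 500 bp. The HmgZ TSS at 21704501 had a ranked region 9 bp away with a signal of 59.3 and an IDR of 0.0359 that did not pass. Replicate 3 had a region 12 bp from the same TSS, with a signal of 31.8 and an IDR of 0.0353. In the across-replicate ranked list the strongest region near the HmgZ TSS at 21707861 had a signal of 33.9 and an IDR of 0.653. Near the HmgD TSS at 21714136 it had 38.5 and 0.746. That list held no region within 500 bp of the HmgZ TSS at 21702830 or the HmgD TSS at 21701458. The TSS of HmgD at 21713356, used by 2 of its 4 annotated transcripts, had no ranked region within 500 bp in any of the 3 replicates or in the across-replicate ranked list of 63709 regions. The conservative summit nearest to it was that of peak 2, 3677 bp away. The TSS of Ssrp also had no ranked region within 500 bp in any of these lists. How many of all TSSs lack such a region was not counted, so nothing is read from this absence.

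Dsp1 (FBgn0278608) lies on X from 16333612 to 16340624 on the plus strand and had 2 conservative peaks. Dsp1 peak 1, at 16332994, was 618 bp upstream of the TSS used by 6 of the 7 annotated transcripts, and inside an intron of CG9921, whose own TSS was 606 bp away on the other strand. Its conservative signal was 330.4 (rank 405 of 3515). The replicate signals were 96.8, 117 and 105, or 1.69, 1.93 and 1.57 times the list median (1.73 ± 0.184, SD, n = 3). These values were close to each other and lay above the median in all 3 replicates. The peak was narrow, at 97 bp, one of 88 conservative peaks (2.50%) under 100 bp, a group that also held HmgZ/HmgD peak 2 at 89 bp.

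Dsp1 peak 2, at 16335291 in a Dsp1 intron, lay 893 bp upstream of an internal TSS at 16336184 and had a conservative signal of 145 (rank 1586). Its signals were 39.7, 49.1 and 54.9 in replicates 1 to 3, and the replicate summits spanned 9 bp, 51 to 60 bp to the right of the conservative summit and so beyond the edge of the printed sequence. It passed in replicates 1 and 3 but not in replicate 2, where its IDR was 0.811 although it stood at 0.812 times the list median, against 0.695 in replicate 1. Peak 1 was 2.24 ± 0.292 times as high as peak 2 (SD, n = 3).

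Of the genes for the FACT subunits, dre4 had conservative peaks nearby and Ssrp had none. The gene of the larger subunit, dre4 (FBgn0002183, 3L from 1871574 to 1876312 on the minus strand), had a peak at its promoter. This peak, dre4 peak 1, had its summit at 1876500, 188 bp upstream of the TSS shared by both annotated transcripts, in the intergenic stretch between dre4 and CG13937. Its conservative signal was 183 (rank 1125), and the replicate signals were 60.5, 66.2 and 65.3. These were 1.04 ± 0.0575 times the list median (SD, n = 3), so the peak had a middling signal in every replicate. Its SD was the smallest of the 8 member peaks. The second, dre4 peak 2, lay 4537 bp outside the gene at 1880849, in an intron of CG13937 and 1710 bp from the TSS of that gene. It passed in the conservative list (signal 96.8, rank 2640, IDR 0.00659) but in none of the 3 replicate lists, where its signals were 38.1, 24.4 and 39.1 with IDRs of 0.0145, 0.497 and 0.0120.

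Ssrp (FBgn0010278, 2R from 23806361 to 23809004 on the minus strand) had 0 peaks in each of the 7 thresholded lists. Of these lists, 4 were made across the same replicates as the other 3. A conservative summit lay inside or within 5 kb of 40.3% of all protein-coding genes, so a gene without one was the more common case. Ssrp also had the shortest search window of the members, at 12.6 kb. The ranked lists held 3, 4 and 4 regions within 5 kb of it in replicates 1 to 3. The strongest had signals of 17.6 (rank 12896 of 49504), 19.9 (rank 8681 of 48710) and 21.3 (rank 11617 of 46992), with IDRs of 0.636, 0.741 and 0.752. None of these regions was within 500 bp of the Ssrp TSS. In the across-replicate ranked list the strongest of 5 regions had a signal of 39.9 and an IDR of 0.273, 774 bp from the TSS in a coding exon. The nearest conservative summit was 35842 bp away, with Snap29, a SNARE gene of membrane fusion, as the gene of the nearest TSS.

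The window of 5 kb decided which peaks counted. Just inside it, the farthest summit outside a gene was at 4537 bp for dre4, 1818 bp for HmgZ, 634 bp for HmgD and 618 bp for Dsp1. Just outside, the nearest was 6036 bp from HmgZ and 10006 bp from HmgD (the same peak, signal 24.2), 9258 bp from dre4 (signal 103) and 13061 bp from Dsp1 (signal 122). A window of 1 kb would have dropped dre4 peak 2, and would have left HmgZ/HmgD peak 2 to HmgD alone.

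**Figure D2:**
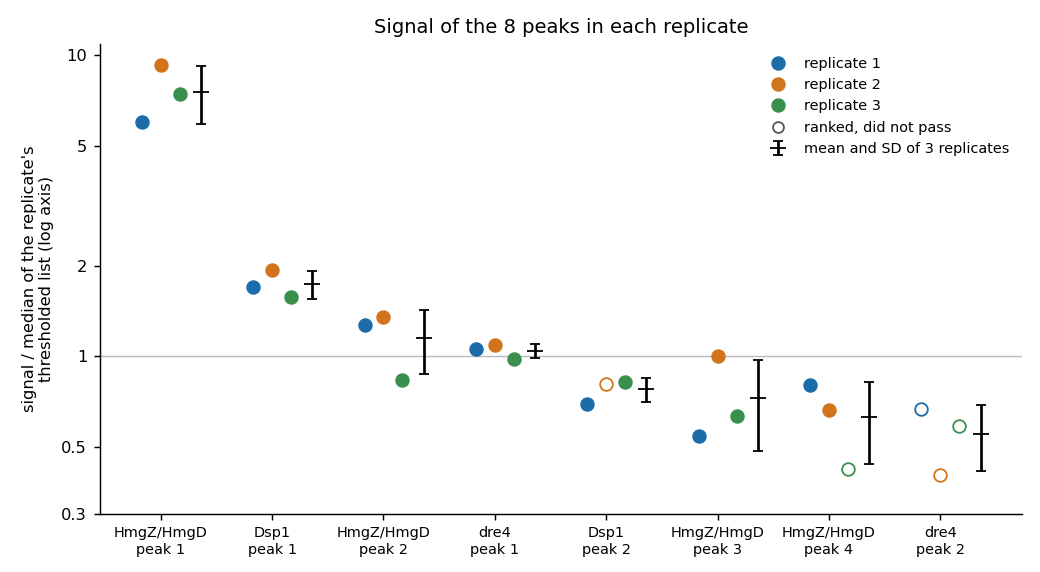
Signal of each of the 8 member peaks over the median of the replicate's own thresholded list (y, log axis), for replicates 1 to 3 (coloured points, open where the region did not pass) with the mean and SD of 3 replicates (black). HmgZ/HmgD peak 1 averages 7.59, Dsp1 peak 1 averages 1.73, and the remaining 6 peaks average between 0.552 and 1.15.

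Ordered by the strongest peak near each, the genes ranked HmgZ and HmgD first, then Dsp1, then dre4, with Ssrp last for want of a peak. The strongest peak stood above 99.3% ± 0.400 of the replicate's thresholded peaks for HmgZ and HmgD, 80.5% ± 3.44 for Dsp1 and 52.9% ± 4.22 for dre4 (SD, n = 3 each). The first place of HmgZ and HmgD follows from the choice of the list, which began from the high signal of this peak. The order of these genes was the same in each replicate, with a single value per gene. HmgZ/HmgD peak 1 was 3.55, 4.82 and 4.72 times as high as Dsp1 peak 1 (4.36 ± 0.706, SD, n = 3), and Dsp1 peak 1 was 1.66 ± 0.0961 times as high as dre4 peak 1. Further down, the order was not stable between replicates: HmgZ/HmgD peak 2 was 1.20 and 1.24 times as high as dre4 peak 1 in replicates 1 and 2, and 0.851 times as high in replicate 3.

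Among all genes, 40.3% had a conservative summit inside or within 5 kb, and 4 of the 5 members did. In each of the 3 replicate lists, 22.5% of genes had a summit in that window, against the same 4 members. At least 4 conservative summits were near 1.77% of genes, and HmgZ and HmgD are among them through the same 4 peaks. A conservative summit within 500 bp of a TSS was found for 14.3% of genes and for 1 member, dre4. Since signal at HmgZ chose the list, nothing is read from the first 3 of these shares. By strongest signal near the gene, HmgZ and HmgD shared rank 44 of 13945, Dsp1 was at rank 1114 and dre4 at rank 2595. The median over the 5625 genes with a peak was 170, with quartiles of 114 and 286, so that dre4 was close to the middle of these genes and Dsp1 was above the upper quartile.

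**Figure D3:**
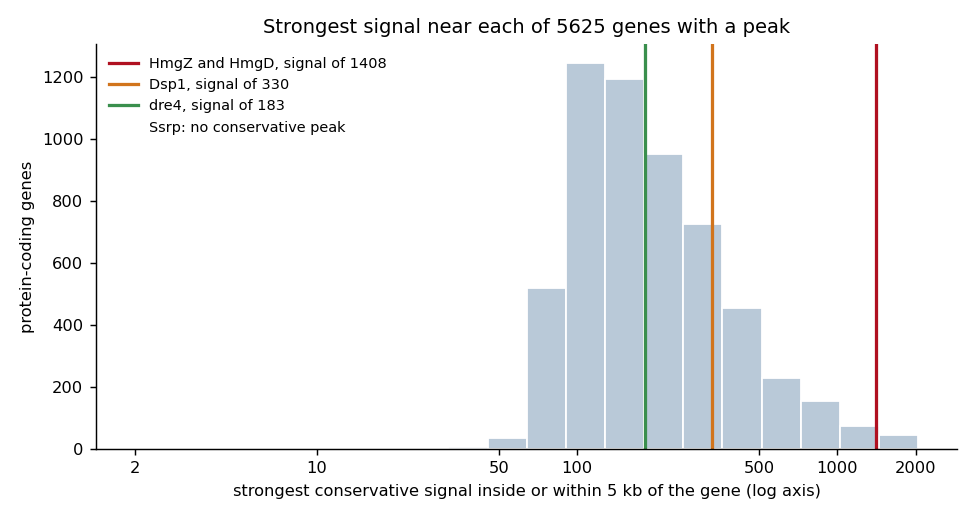
Protein-coding genes (y, count) by the strongest conservative signal inside or within 5 kb of the gene (x, log axis), for the 5625 genes with such a peak. Lines mark HmgZ and HmgD at 1408, Dsp1 at 330 and dre4 at 183, and Ssrp has no line because it had no conservative peak.

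Position and replication of the 8 peaks were set beside those of all 3502 conservative peaks on the arms. Of the 8 peaks, 7 had their summit in an intron of some gene, against 48.9% of all peaks. Within 500 bp of a protein-coding TSS lay 1 of the 8, against 45.8%. All 3 replicate lists had a peak overlapping 5 of the 8, against 40.6%. HmgZ/HmgD peak 1, whose signal chose the list, is among the 5, so nothing is read from this share. The 4 peaks of the HmgZ and HmgD locus share an interval, so they are not 8 independent places. The 5 member peaks of 330 bp each had the summit at the midpoint, and for these the summit adds nothing to the edges of the peak.

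Apart from TGCACTG, 9 motifs were searched on both strands within 50 bp of the summits. TATAAA, the TATA box, was at HmgZ/HmgD peak 1 and at 23.0% of conservative peaks. CGATA, part of the DNA replication-related element (DRE), was at HmgZ/HmgD peak 3 and at 14.0% of conservative peaks, while the whole DRE, TATCGATA, was at 0 of the 8 and at 1.40% of all. GCCAT was at both Dsp1 peaks and at 13.5% of conservative peaks, and CANNTG, the E-box, was at both Dsp1 peaks, at dre4 peak 2 and at 33.8%. ACAGTG was at HmgZ/HmgD peak 2 (7.82% of all) and GAGAG at dre4 peak 2 (8.79%), where its first letter is the last of the TGCACTG printed above. CAGGTAG, the Zelda site, and the CTCF core were at none of the 8 and at 0.485% and 1.17% of all. Among ranked regions that did not pass, the shares of GCCAT (22.6%), CANNTG (42.9%), GAGAG (12.2%) and CAGGTAG (0.571%) were higher than among conservative peaks. Those of TATAAA (8.62%), CGATA (10.2%), TATCGATA (0.280%), ACAGTG (4.44%) and the CTCF core (0.253%) were lower. GC content in the same window ran from 27.7% at Dsp1 peak 2 to 50.5% at HmgZ/HmgD peak 3, with a median of 38.1% over the 8 and 31.7% over the conservative peaks.

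Other HMG-box genes were mixed. Of 16 listed, 11 (68.8%) had a conservative summit within 5 kb, against 40.3% of all genes. Sox21a and Sox21b share a single peak, and so do tHMG1 and tHMG2, so these genes rest on fewer places than their number. In every replicate list 6 had a summit, against 22.5% of all genes, and within 500 bp of their TSS 3 had one, against 14.3%. The strongest were at Sox14, a target of ecdysone in metamorphosis, with a signal of 869 and a summit 245 bp from its TSS, and at cic, the repressor Capicua of the Ras pathway, with 249 at 558 bp. Sox102F had 182 at 249 bp from its TSS. Near Hmg-2 (232) and Sox15 (174) the summit was nearer to another gene, 113 bp from Xbp1 and 23 bp from RpS23. Hmg-2 is among the 3 with a summit within 500 bp of their TSS through its other peak. The 5 without a peak were D, SoxN, pan, Bap111 and polybromo, named after their values were seen. The list median signal among those with a peak was 147, below the 170 of all genes with a peak, and none of the 16 had as many as 4 summits.

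Of the other histone chaperone and elongation genes, 20 of 26 listed symbols were found, and 8 of these (40.0%) had a conservative summit within 5 kb, beside 40.3% of all genes. Caf1-55, a histone-binding subunit of several chromatin complexes, had the highest signal at 1517 (rank 11, next to HmgZ/HmgD peak 1), 117 bp from the TSS of Art3 and 3949 bp from its own. Spt6, a histone chaperone of transcribing polymerase, had 449, with schlank as the nearest start. XNP, the fly ATRX, had 372 at a summit 183 bp from Vps33B, and Spt5 had 241 at one 38 bp from RpL11. Chd1, a nucleosome remodeller, had 186 at a summit 111 bp from Bem46 and 282 bp from its own TSS. Of the 20, 6 had a summit in every replicate list, against 22.5% of all genes, and 3 had one within 500 bp of their TSS, against 14.3%; Spt6 is among these 3 through another of its peaks.

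**Figure D4:**
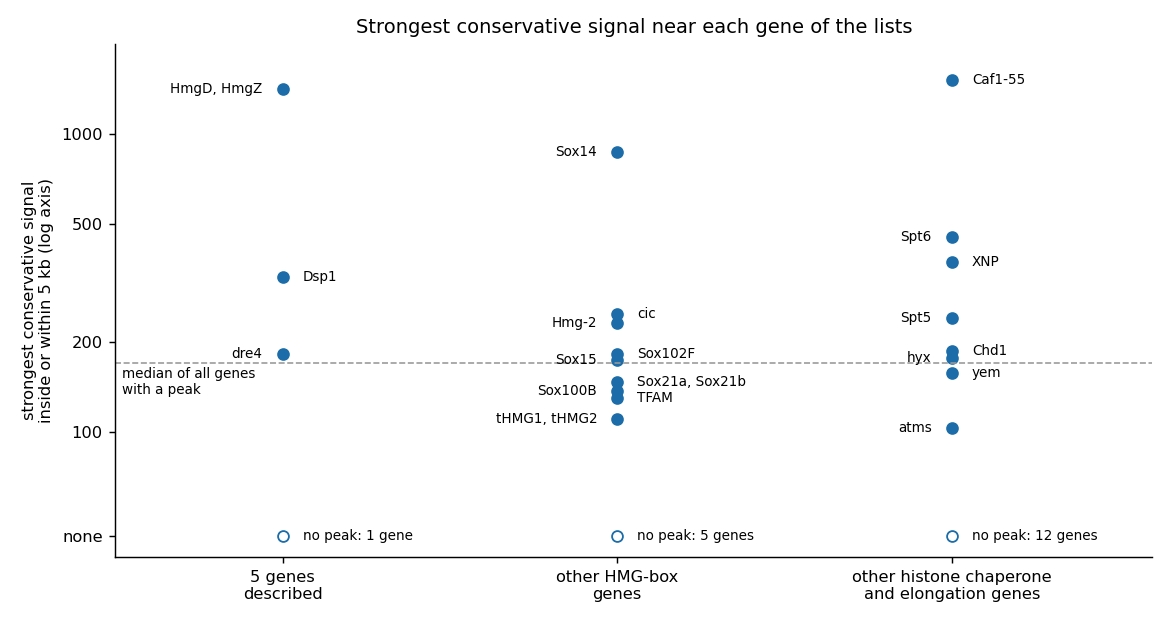
Strongest conservative signal inside or within 5 kb of each gene (y, log axis) for the 5 genes described, 16 other HMG-box genes and 20 other histone chaperone and elongation genes, with open points for genes that had no peak. HmgD and HmgZ at 1408 lie just below Caf1-55 at 1517 and above Sox14 at 869, and dre4 at 183 lies close to the dashed median of all genes with a peak at 170.

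The peaks most like those of the members were found among 1421 other conservative peaks with an overlapping peak in every replicate, as the smallest Euclidean distance over 3 values, the log2 signal over list median in each replicate. To HmgZ/HmgD peak 1 the closest were the peaks nearest to eIF6, a factor of ribosome biogenesis (distance 0.0969), Chro, the chromatin and spindle protein Chromator (0.202), and CG32772 (0.256). The eIF6 peak had 5.78, 9.02 and 7.75 times the list median in replicates 1 to 3, values that follow from its choice as the closest. To Dsp1 peak 1 the closest were those nearest to Svil, an actin-binding supervillin (0.0485), Tlk, the Tousled-like kinase (0.0594), and l(1)G0320 (0.0834). To dre4 peak 1 they were those nearest to Bx, a LIM-domain protein (0.0555), sli, the axon guidance ligand Slit (0.0593), and scyl (0.0595). The likeness covers 3 signals that share their libraries.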

How the data were processed

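Peaks were made by the authors from anti-GFP ChIP-seq of 3 biological replicates, with fragments of 200 to 800 bp and coordinates on dm6, per the labels. No source used here names the aligner or the caller, and read depth is unknown. For each replicate, and for 4 across-replicate comparisons, the authors deposited a ranked and a thresholded list. The deposited signal of a region is the authors' own value, on a scale not stated. It was therefore compared within a list, or between replicates after division by the median of the list. Ranked lists hold the IDR, deposited by the authors as a −log10 value. Thresholded lists hold regions with an IDR of at most 0.01.

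A summit was the peak start plus the deposited offset. Genes came from Ensembl BDGP6.54 (release 115) and sequence from RefSeq. On the 6 arms 0 peaks ended past the reference length. Scripts used Python 3.11.15, pandas 2.3.3 and numpy 2.4.6, and were tested on simulated data. A peak belonged to a gene if its summit lay inside it or within 5 kb, and peaks sharing at least 1 bp overlapped. In each other gene list the 5 members with the highest signals are named, for each of 3 peaks the 3 most alike, and for each peak the nearest coding TSS. The members, lists and motifs were chosen with earlier results of these data known. With 1 group there was no test. The alternatives tried were other across-replicate lists, windows, a stricter IDR of 0.001, peak midpoints, ranked-list percentiles and leaving out each replicate.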

Additional observations from a re-analysis of the deposited data

How the results depend on the processing

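Of 64 alternative values, 49 stayed within 1.5 times the reported count or within the replicate SD, and 15 moved. A conservative peak was near 4 of the 5 genes at windows of 1, 2 and 10 kb, and also at an IDR of at most 0.001. The count was also 4 in the lists of 3219, 3247 and 3534 peaks. These lists hold the member peaks with the same coordinates and signals as the conservative list, so they are not a separate check. With each replicate left out, 4 genes had a peak in every remaining replicate. That outcome was fixed, because these genes had a peak in every replicate list and Ssrp had none in any. Both kinds of outcome are among the 49 that stayed. Within 500 bp of a TSS the count was 1 of the 5 genes, 3 of the other HMG-box genes, 3 of the histone chaperone and elongation genes and 1998 of all genes. Within 1 kb of the gene it was 6 of the other HMG-box genes (also 6 within 2 kb), 4 of the chaperone and elongation genes and 3165 of all genes. In the ranked lists the percentile of the strongest peak was 99.96 for HmgZ and HmgD, 99.1 for Dsp1 and 97.7 for dre4, because these lists add many weak regions below it. Measured from the midpoint of peak 1, the distance was 583 bp to the HmgZ TSS and 1955 bp to the HmgD TSS, and from the summit to the 5′ end of the HmgZ gene it was 4464 bp. Within 150 bp of the summits there were 22 matches of motif and peak, against 9 of 72 within 50 bp. No paired analysis was possible because there was 1 group, so no groups shared replicate numbers; ratios between peaks were taken within each replicate. Read depth is not known, and its part in which regions passed, as at Ssrp, was not tested.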
